A study of Homo sapiens with 6 samples.

Results

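H3K27ac peaks were described at 10 genes that p53 is known to activate: CDKN1A, MDM2, ZMAT3, SESN1, FAS, GADD45A, FDXR, TNFRSF10B, PHLDA3 and BTG2. They are 10 of 20007 protein-coding genes and were chosen from the textbook targets of p53 after promoter peak widths of a longer p53 list in these same libraries had been seen, so their promoter values are a description and carry no test. For each gene the peaks of 4 lists were taken from the gene body plus 10 kb to each side (the gene region) and from a window that extends 2500 bases upstream and 2500 bases downstream of its canonical start (the promoter window). The lists came from CUT&Tag, a method in which an antibody to acetylated lysine 27 of histone H3 steers a transposase to the chromatin around it.

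There were 4 groups of 1 list each: the control (NC) and the ANP32B knockdown (sh-ANP32B) of Kasumi-1, and the same pair of MV4-11. Both are established cell lines from acute myeloid leukemia (AML), Kasumi-1 with a RUNX1::RUNX1T1 fusion and MV4-11 with a KMT2A fusion. In the study's methods the cells were stable lines selected with puromycin that carried an ANP32B hairpin or the control hairpin sh-NC, while the labels call the NC samples untreated. Which of the ANP32B hairpins was used is not given in the sources used here. Replicates had been merged before peaks were called, so no value below has a replicate error, and every difference describes these libraries only. The question was how the knockdown, and the choice of line, bore on H3K27ac at the p53 targets.

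p53 is a transcription factor that is stabilised by DNA damage and other stress and then switches on genes for cell cycle arrest, apoptosis, repair and redox control. Among its targets is MDM2, whose product marks p53 for degradation and so closes a feedback loop. p53 binds a pair of adjoining decamers, often in the promoter or the first intron of its targets. H3K27ac marks active promoters and enhancers, and a wide peak over a start site usually goes with active transcription.

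The p53 motif was looked for in hg38 because it is a feature of the members' sequence that the choice of genes by their peaks did not use. A match was a run of 20 bases that follows the p53 consensus as a pair of adjoining decamers with no gap, with the C and the G in the core of each decamer fixed and at most 2 mismatches elsewhere. The motif reads the same on both strands, so 1 search covered both. Such a match lay in the promoter window of 7 of the 10 genes (CDKN1A, MDM2, ZMAT3, FAS, GADD45A, TNFRSF10B and BTG2), 1 in each, whereas 3.78% of all 20007 promoter windows held one. SESN1, FDXR and PHLDA3 had none in the gene region. In the gene regions of the 10 genes there were 13 matches in all. With at most 3 mismatches, 8 members and 21.0% of all windows held a match. Several targets became known through such sites, so this share describes the list and is no test. Those compared in detail with the peak positions below are shown with 15 bases to each side, 5′ to 3′ on the strand of the gene, with the match in capitals and its hg38 position.
CDKN1A far upstream match, chr6:36667258-36667277, plus strand: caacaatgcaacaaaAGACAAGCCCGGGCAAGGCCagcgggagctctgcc
CDKN1A upstream match, chr6:36676449-36676468, plus strand: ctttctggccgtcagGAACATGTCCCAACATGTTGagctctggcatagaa
MDM2 intron 1 match, chr12:68808923-68808942, plus strand: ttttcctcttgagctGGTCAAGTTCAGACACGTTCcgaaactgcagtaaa
ZMAT3 intron 1 match, chr3:179070188-179070207, minus strand: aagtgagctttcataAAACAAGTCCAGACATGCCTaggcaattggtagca
FAS intron 1 match, chr10:88991309-88991328, plus strand: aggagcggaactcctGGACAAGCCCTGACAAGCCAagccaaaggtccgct
GADD45A intron 3 match, chr1:67686775-67686794, plus strand: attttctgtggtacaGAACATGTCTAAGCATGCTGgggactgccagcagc

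The ZMAT3 match had 0 mismatches, the GADD45A match and the far upstream CDKN1A match 1 each, and the others shown 2. Promoters of CDKN1A and MDM2 are shown because peaks drew away from start sites there. They were read from RefSeq (GRCh38.p14), from 250 bases before to 50 bases after the start. The first is the canonical start of CDKN1A, with each CpG in capitals. The second is an internal start of MDM2, 840 bases downstream of the canonical one, with the p53 motif match in capitals. RefSeq promoters were matched for 7 of the 10 genes.
CDKN1A canonical promoter, chr6:36678464-36678763, plus strand: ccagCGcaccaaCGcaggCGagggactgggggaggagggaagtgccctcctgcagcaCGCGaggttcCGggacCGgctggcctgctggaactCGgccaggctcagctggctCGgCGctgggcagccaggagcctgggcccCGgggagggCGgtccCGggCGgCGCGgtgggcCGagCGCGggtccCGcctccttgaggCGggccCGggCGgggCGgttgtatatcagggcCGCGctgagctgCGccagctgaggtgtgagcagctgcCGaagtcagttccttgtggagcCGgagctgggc
MDM2 internal promoter, chr12:68808767-68809066, plus strand: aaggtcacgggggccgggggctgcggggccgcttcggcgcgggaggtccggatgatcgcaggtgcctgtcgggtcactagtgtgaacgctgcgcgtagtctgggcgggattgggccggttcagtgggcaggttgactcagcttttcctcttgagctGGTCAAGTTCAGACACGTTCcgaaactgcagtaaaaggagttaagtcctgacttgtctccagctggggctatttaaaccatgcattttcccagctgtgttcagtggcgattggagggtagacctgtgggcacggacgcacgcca

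The lists held 22136 to 24523 peaks on chromosomes 1 to 22, X and Y, and their read depth is unknown. Median peak width was 1044 bases in the Kasumi-1 control and 980 in its knockdown, then 815 in the MV4-11 control and 742 in its knockdown, so the MV4-11 peaks were narrower on the whole. Of 10 myeloid genes set as markers, 7, 7, 8 and 6 had a promoter peak in these lists in the same order. MPO had none in any list, PTPRC and LYZ none in Kasumi-1, CD33 none in MV4-11, and CEBPA and FLT3 none in the MV4-11 knockdown. RUNX1T1, POU4F1 and KIT, set as markers of a RUNX1::RUNX1T1 line, had no promoter peak in either line. HOXA9, HOXA10 and MEIS1, set as markers of a KMT2A fusion line, had one in all 4 lists. The presence of a peak at these genes thus did not tell the lines apart, and no peak at RUNX1T1, POU4F1 or KIT bore out the Kasumi-1 label. In amount, HOXA9 and HOXA10, genes known for high expression in leukemia with a KMT2A fusion, went against the labels. HOXA9 had 4335 and 4707 promoter bases in the Kasumi-1 lists and 769 and 659 in the MV4-11 lists, and HOXA10 had 5001 in both Kasumi-1 lists and 2648 and 1638 in MV4-11. MEIS1 was similar throughout, at 3103 to 3337 bases. The lists are named here by their labels, and the identity of the lines was not tested. EPCAM, ALB and CDH1 had none. ANP32B, the targeted gene, had 3447 promoter bases in the Kasumi-1 control and 3432 in its knockdown, and 3433 and 2631 in MV4-11, which does not measure the knockdown, since a hairpin acts on the mRNA.

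A promoter peak was present at 9 of the 10 genes in the Kasumi-1 control, where 47.7% of all protein-coding genes had one. The count was 8 in the Kasumi-1 knockdown (45.3% of all genes), 6 in the MV4-11 control (35.8%) and 5 in the MV4-11 knockdown (28.6%). CDKN1A, MDM2, FAS, TNFRSF10B and BTG2 had a promoter peak in all 4 lists, as did 25.9% of all genes. SESN1 had one in every list except the MV4-11 knockdown, and GADD45A and FDXR had one in Kasumi-1 only. ZMAT3 had one in the Kasumi-1 control alone, and PHLDA3 had none in any list. The canonical start itself lay under a peak at 6 members in the Kasumi-1 control (41.3% of all genes), 5 in the Kasumi-1 knockdown (35.2%), 4 in the MV4-11 control (23.8%) and 3 in the MV4-11 knockdown (16.5%). CDKN1A was the member that dropped out between the Kasumi-1 lists, and MDM2 between the MV4-11 lists.

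**Figure D1:**
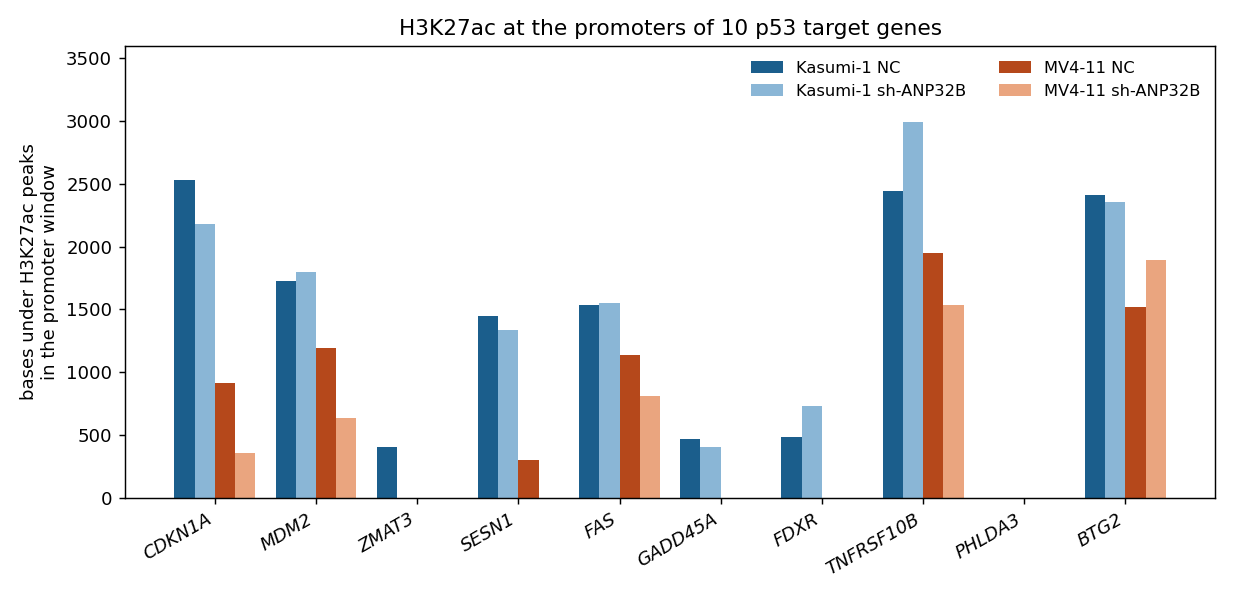
Bases under H3K27ac peaks in the promoter window (y axis, in bases, from 0) of the 10 p53 target genes (x axis), 1 bar per library and no replicates. MV4-11 bars are below the Kasumi-1 bars at every gene with peaks in both lines, PHLDA3 has no bar, and BTG2 is the member whose MV4-11 bar is taller after knockdown.

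Among the targets that act in cell cycle arrest is CDKN1A. It encodes p21, an inhibitor of cyclin-dependent kinases (chromosome 6, 36676460 to 36687337, plus strand, canonical start 36678714). Its promoter window had 1 peak in each list, which held 2533 bases in the Kasumi-1 control and 2183 in its knockdown, then 914 in the MV4-11 control and 354 in its knockdown. The levels thus stepped down through the 4 lists, and knockdown was lower than NC in both lines. The log2 ratio of sh-ANP32B to NC was -0.21 in Kasumi-1 and -1.37 in MV4-11. The MV4-11 ratio rests on a knockdown peak of 354 bases, near the smallest width of 275 bases in that list. Of all genes with a promoter peak in both MV4-11 lists, 7.06% had a ratio as low or lower. Genes whose promoter peak was lost after knockdown are not in this share. With lost and gained peaks included, promoter bases were at least 1.5-fold lower at 45.0% of genes in MV4-11.

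The CDKN1A peak narrowed from the upstream side. In the Kasumi-1 control it reached from 313 bases upstream to 2219 bases downstream of the start and covered the start of the antisense lncRNA DINOL, 155 bases upstream. In the Kasumi-1 knockdown it began 74 bases downstream of the start, and its downstream edge was at 2256. All 300 bases of the CDKN1A promoter shown above lay under the Kasumi-1 control peak, and 0 bases did so in the other 3 lists. In MV4-11 the peak lay wholly in intron 1, from 786 to 1699 bases downstream in the control and from 1263 to 1616 in the knockdown. Its width percentile within its own list went from 55.9 to 11.8 in MV4-11, and from 87.0 to 82.7 in Kasumi-1.

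Across the gene region, CDKN1A differed between the lines in direction. Region bases were 4907 in the Kasumi-1 control and 5834 in the Kasumi-1 knockdown, against 2008 and 354 in the MV4-11 lists. The upstream peak that covers the far upstream p53 match, about 11 kb before the start, was 1158 bases wide in the Kasumi-1 control, 2212 in the Kasumi-1 knockdown and 473 in the MV4-11 control, and was absent from the MV4-11 knockdown. A downstream peak had 1208, 1418 and 621 bases in the same 3 lists and was likewise absent from the MV4-11 knockdown. Only the edge of a peak over the start of RAB44 fell inside the region in Kasumi-1.

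**Figure D2:**
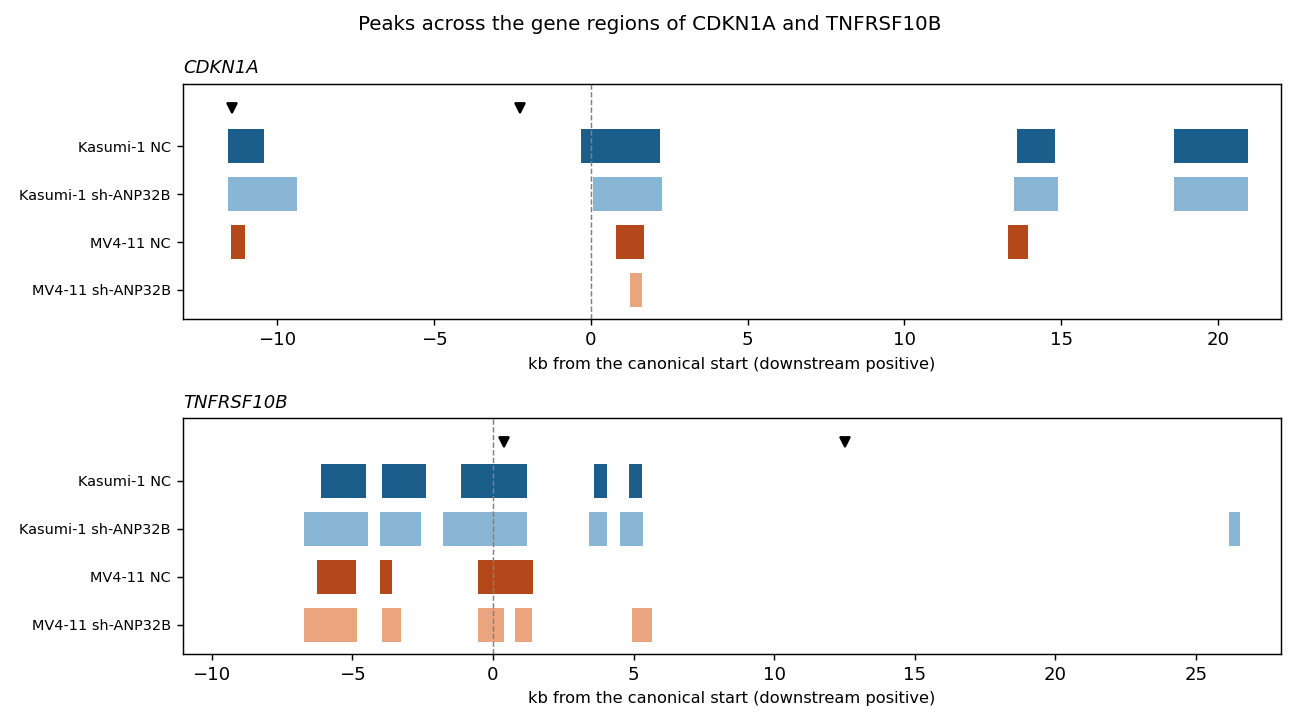
Peaks (bars, 1 row per library) across the gene regions of CDKN1A and TNFRSF10B, drawn at full width and placed by distance from the canonical start in kb (x axis, downstream positive), with p53 motif matches as triangles. MV4-11 sh-ANP32B holds 1 peak at CDKN1A and 5 at TNFRSF10B.

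GADD45A, a stress sensor that binds PCNA and slows the cycle (chromosome 1, 67685201 to 67688334, plus strand), had narrow peaks in Kasumi-1 only. These had 465 bases in the control and 407 in the knockdown, and both MV4-11 lists were at 0. The peak lay around exon 3, starting 1049 and 1141 bases downstream of the start, and its downstream edge stopped 61 and 27 bases short of the p53 match in intron 3. Its width percentiles were 14.4 and 8.15, among the narrowest peaks of those lists.

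BTG2, an antiproliferative partner of the CCR4-NOT deadenylase (chromosome 1, 203305491 to 203309602, plus strand), had the opposite order to CDKN1A in MV4-11. Promoter bases were 2416 in the Kasumi-1 control and 2353 in its knockdown, then 1518 in the MV4-11 control and 1893 in its knockdown. It was the only member with more promoter bases after knockdown in MV4-11, with a log2 ratio of 0.32 against -0.04 in Kasumi-1. In MV4-11, 91.1% of all genes with a peak in both lists had a ratio as low or lower. The peak widened on both sides, by 132 bases upstream and 243 downstream, and its width percentile went from 77.9 to 87.7. In each list the BTG2 peak also covered the start of the divergent lncRNA BTG2-DT, 210 bases upstream.

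MDM2, the ubiquitin ligase of the feedback loop (chromosome 12, 68808177 to 68845544, plus strand), had 1 peak in each list. It held 1723 bases in the Kasumi-1 control and 1802 in its knockdown, then 1192 in the MV4-11 control and 633 in its knockdown. Kasumi-1 was slightly higher after knockdown and MV4-11 lower, with log2 ratios of 0.06 and -0.91. In MV4-11, 16.6% of genes with a peak in both lists had a ratio as low or lower, lost peaks again left out. The width percentile went from 68.3 to 41.7.

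As at CDKN1A, the MV4-11 difference at MDM2 was on the upstream side. The peak reached 476 bases upstream of the start in the MV4-11 control and began 42 bases downstream of it in the knockdown, while its downstream edge went from 715 to 674. Of the 300 bases around the canonical start, 300 were under a peak in both Kasumi-1 lists and in the MV4-11 control, and 8 were in the MV4-11 knockdown. Of the 300 bases around the internal start shown above, 279 were covered in the Kasumi-1 control, all 300 in the Kasumi-1 knockdown, 126 in the MV4-11 control and 85 in the MV4-11 knockdown. The p53 match of this internal promoter lay under the peak in both Kasumi-1 lists, and 31 and 72 bases past its edge in the MV4-11 control and knockdown.

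**Figure D3:**
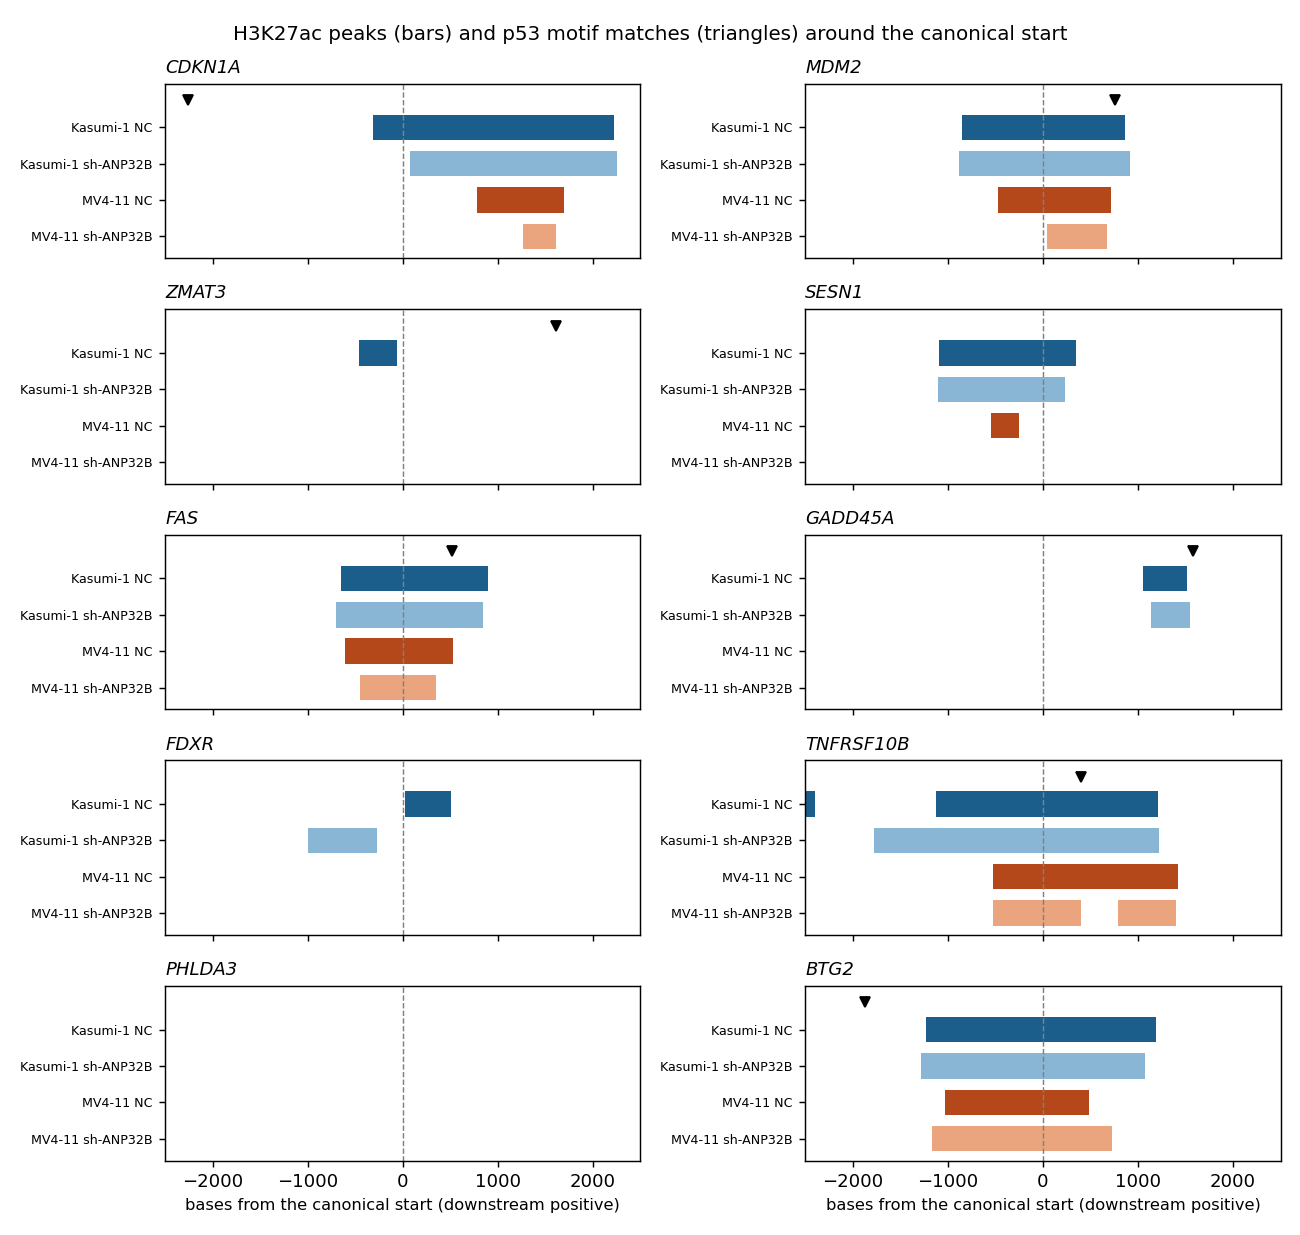
H3K27ac peaks (bars, 1 row per library) in the promoter window of each gene, placed by distance in bases from the canonical start (x axis, downstream positive, dashed line at the start), with p53 motif matches of at most 2 mismatches as triangles. At CDKN1A and MDM2 the MV4-11 sh-ANP32B bar begins downstream of the start, and at TNFRSF10B it is in 2 pieces.

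The death receptors of the list kept a peak over their start in all 4 lists. FAS (chromosome 10, 88953813 to 89029605, plus strand, canonical start 88990798) had 1539 and 1551 promoter bases in the Kasumi-1 control and knockdown, and 1141 and 807 in MV4-11. The log2 ratio was 0.01 in Kasumi-1 and -0.50 in MV4-11, where 34.3% of genes with a peak in both lists had a ratio as low or lower. Both edges were drawn in there, by 155 bases upstream and 179 downstream. The p53 match in intron 1 of FAS, 511 bases downstream of the start, was under the peak in the Kasumi-1 control, the Kasumi-1 knockdown and the MV4-11 control, and lay 156 bases from the nearest peak in the MV4-11 knockdown.

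TNFRSF10B, which encodes the TRAIL receptor DR5 (chromosome 8, minus strand), had the most peak bases of the members over its gene region in every list. Its promoter window held 2441 bases in the Kasumi-1 control and 2992 in its knockdown, then 1947 in the MV4-11 control and 1535 in its knockdown. The lines went in opposite directions, with log2 ratios of 0.29 and -0.34. In MV4-11 a single peak of 1947 bases gave way to 2 peaks of 923 and 612 bases, with the upstream edge almost in place at 528 and 524 bases. The first of these ended 398 bases downstream of the start, within the p53 match at 390 to 409. The other 3 lists covered the whole match.

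Over the whole gene region TNFRSF10B had more peak bases after knockdown in both lines, though within 1.5-fold. Region bases were 6423 and 8591 in the Kasumi-1 control and knockdown, on 5 and 6 peaks, and 3734 and 4810 in MV4-11, on 3 and 5 peaks. The log2 ratios were 0.42 and 0.37. A peak over the start of the lncRNA CHILL1, about 5 kb upstream, had 1594, 2266, 1373 and 1892 bases in the order of the lists, and so was wider after knockdown in each line. An intron 1 peak of 699 bases was present in the MV4-11 knockdown and not in the MV4-11 control. The promoter peak also held the start of the antisense lncRNA ENSG00000246130, except that in the MV4-11 knockdown it was the second piece that did.

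The members that act in redox control and metabolism had little signal in MV4-11. SESN1, a sestrin that restrains mTORC1 (chromosome 6, 108984309 to 109094846, minus strand), had 1448 promoter bases in the Kasumi-1 control and 1333 in its knockdown, then 299 in the MV4-11 control and 0 in its knockdown. The MV4-11 control peak was at width percentile 1.41 of its list, close to the smallest width of 289 bases that list holds, so its absence after knockdown is a difference at the edge of what could be called. It also lay 251 to 549 bases upstream of the SESN1 start, between that start and the start of the divergent gene CEP57L1, 661 bases away, and the Kasumi-1 peaks covered both starts, so the signal cannot be assigned to either gene. FDXR, a mitochondrial ferredoxin reductase (chromosome 17, 74862497 to 74873031, minus strand), had 483 bases in the Kasumi-1 control and 732 in the Kasumi-1 knockdown, and 0 in MV4-11. The FDXR peaks of the 2 lists did not overlap: in the control the peak lay from 26 to 508 bases downstream of the start, and in the knockdown from 269 to 1000 bases upstream of it.

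ZMAT3, an RNA-binding protein that acts in p53 tumor suppression (chromosome 3, 178960121 to 179072215, minus strand), had a single peak of 403 bases in the Kasumi-1 control, 58 to 460 bases upstream of the canonical start, and none in the other lists. Its width percentile was 6.77. The ZMAT3 p53 match, 1602 bases downstream of the start, was under no peak. PHLDA3, an inhibitor of AKT signalling (chromosome 1, 201464278 to 201469237, minus strand), had no peak in its promoter window or its body, but a pair of peaks past its end in every list. These peaks held 3644 region bases in the Kasumi-1 control and 3715 in its knockdown, then 1919 in the MV4-11 control and 2147 in its knockdown. They began 6549 and 11693 bases downstream of the start in the Kasumi-1 control, and no annotated gene start lay inside them.

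Counts over the members were set beside those over all protein-coding genes with a peak in at least 1 library of the pair, where a gene was called lower or higher from a 1.5-fold difference in bases, lost and gained peaks included. In Kasumi-1, promoter bases were lower after knockdown at 1 of 9 members (ZMAT3), where the share over all genes was 14.6%, and higher at 1 (FDXR), where it was 4.86%. Both rested on peaks of at most 732 bases. In MV4-11 they were lower at 3 of 6 members (CDKN1A, MDM2 and SESN1) and higher at 0, beside 45.0% and 7.28% of all genes. The MV4-11 count is close to that background. With a lower fold as the limit it was 5 of 6, with FAS and TNFRSF10B added, and the share over all genes was then 56.6%.

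The median log2 ratio of promoter bases in MV4-11 was -0.50 over the 5 members with a peak in both lists and -0.27 over 5412 such genes, and SESN1, without a peak after knockdown, is not among the 5. In Kasumi-1 it was -0.013 over 8 members and 0.0041 over 8889 genes. By the width percentile of the widest promoter peak, which takes out the narrowing of a whole list, the median difference in MV4-11 was -25.4 points over the members and -3.65 over all genes. The member median is the value of TNFRSF10B itself, whose peak was in 2 pieces after knockdown and was ranked by the wider piece alone, while its summed promoter bases differed by -0.34 on the log2 scale. The other members were at -44.1 (CDKN1A), -26.6 (MDM2), -12.1 (FAS) and 9.83 (BTG2), so the list did not move as one.

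**Figure D4:**
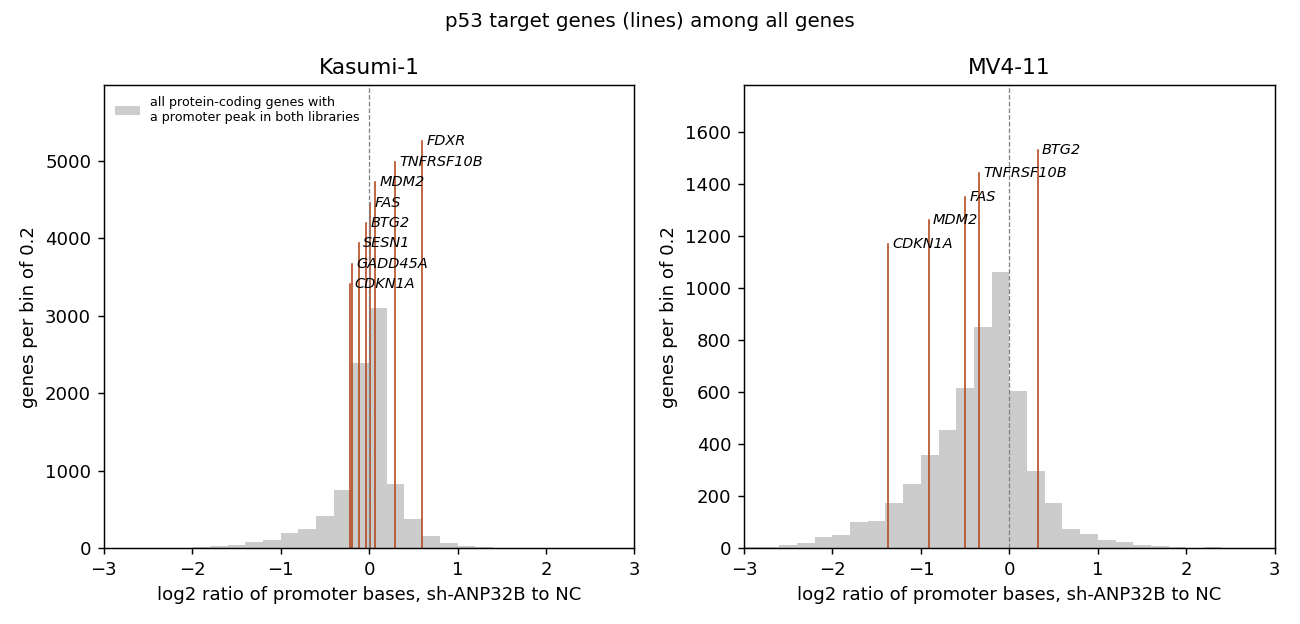
Histogram of the log2 ratio of promoter bases, sh-ANP32B to NC (x axis), over all protein-coding genes whose promoter window held a peak before and after knockdown (grey, genes per bin of 0.2 on the y axis), with the p53 target genes as vertical lines whose heights only space the names. In MV4-11 the members run from -1.37 at CDKN1A to 0.32 at BTG2.

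Edges of the promoter peaks were compared where a gene had 1 overlapping peak in each library. In MV4-11 the upstream edge was drawn in by a median of 316 bases and the downstream edge by 62 over 4 members (CDKN1A, MDM2, FAS and BTG2), beside 52 and 59.5 bases over 3820 genes. The values were 477 bases at CDKN1A, 518 at MDM2 and 155 at FAS for the upstream edge, and at BTG2 it moved outward. In Kasumi-1 the medians over 6 members were 17.5 bases outward upstream and 6 inward downstream, and CDKN1A, at 387 bases, was the member whose upstream edge was drawn in most.

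The NC lists were compared to see how the lines differ before knockdown. Promoter bases were at least 1.5-fold lower in the MV4-11 control than in the Kasumi-1 control at 6 of 9 members (CDKN1A, ZMAT3, SESN1, GADD45A, FDXR and BTG2), beside 61.9% of all genes, and higher at 0, beside 5.84%. MDM2, FAS and TNFRSF10B differed by less than 1.5-fold, and each was lower in MV4-11. The log2 ratio of the MV4-11 control to the Kasumi-1 control was -1.47 at CDKN1A, -2.28 at SESN1 and -0.67 at BTG2. The members thus followed the lower covered length of MV4-11 lists at large, and the share of members was near that of all genes.

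Over the gene regions, the 10 members together held 18 peaks and 23451 bases in the Kasumi-1 control, 18 peaks and 26318 bases in the Kasumi-1 knockdown, 12 peaks and 11811 bases in the MV4-11 control, and 11 peaks and 10644 bases in the MV4-11 knockdown. The mean width of these peaks was 1432, 1593, 984 and 968 bases. The part outside the promoter windows was larger after knockdown in both lines, with 10000 and 12965 bases in Kasumi-1 and 4800 and 5422 in MV4-11. All of it belonged to TNFRSF10B, PHLDA3 and CDKN1A. In MV4-11 the larger sum came from TNFRSF10B and PHLDA3, while CDKN1A went the other way, with no peak outside its window after knockdown. The same sum over all genes was not taken. Region bases in Kasumi-1 were lower at 1 of 10 members (ZMAT3) and higher at 1 (FDXR), beside 9.93% and 5.94% of all genes. In MV4-11 they were lower at 3 of 7 (CDKN1A, MDM2 and SESN1) and higher at 0, beside 40.5% and 8.30%. Between the NC lists they were lower in MV4-11 at 8 of 10 and higher at 0, beside 51.0% and 14.7%, with MDM2 and FAS within 1.5-fold.

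Of the 13 p53 matches in the gene regions, 4 lay at least partly under a peak in the Kasumi-1 control, 4 in the Kasumi-1 knockdown, 3 in the MV4-11 control and 1 in the MV4-11 knockdown. The share of matches under a peak over all genes was not counted. Canonical starts under a peak were also fewer over all genes after knockdown in MV4-11, at 16.5% against 23.8% in its control. Those under a peak in both Kasumi-1 lists were the far upstream CDKN1A match and the intron 1 matches of MDM2, FAS and TNFRSF10B. In the MV4-11 knockdown, TNFRSF10B was the member with a match partly under a peak. The CDKN1A match 2265 bases upstream of the start was under no peak in any list, and the nearest peak edge was 1933 to 3509 bases away.

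In base composition the members varied. The GC content of their promoter windows ran from 44.2% at SESN1 to 58.0% at PHLDA3, around a median of 49.5% for all genes, and the number of CpG from 115 at FAS to 229 at CDKN1A, around a median of 145. The 300 bases at the canonical start were 74.3% GC at CDKN1A and 63.0% at FAS.

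Other p53 targets were taken as a list of 28 genes. A promoter peak was present at 18 of them in the Kasumi-1 control, 17 in the Kasumi-1 knockdown, 16 in the MV4-11 control and 8 in the MV4-11 knockdown. Over all genes the shares in the same order were 47.7%, 45.3%, 35.8% and 28.6%. In Kasumi-1 promoter bases were lower after knockdown at 2 of 18 and higher at 1, beside the 14.6% and 4.86% of all genes given above. In MV4-11 they were lower at 12 of 17 and higher at 1, beside 45.0% and 7.28%. SESN2, a second sestrin, had 1516 and 941 promoter bases in the Kasumi-1 control and knockdown, and BBC3, which encodes the BH3-only protein PUMA, had 837 and 1460. The widest BBC3 peak lay mostly outside the window, with a full width of 4265 bases in the control and 4826 in the knockdown. Over its gene region BBC3 was within 1.5-fold in Kasumi-1. In MV4-11, APAF1, the scaffold of the apoptosome, had 2002 bases in the control and 891 in the knockdown, and CCNG1, cyclin G1, had 1093 and 598. CD82, a tetraspanin, went the other way in MV4-11, from 0 to 1838 bases.

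Regulators of p53 were taken as a list of 15 genes, of which 11 had a promoter peak in each Kasumi-1 list, 8 in the MV4-11 control and 7 in the MV4-11 knockdown. All genes had one in shares of 47.7% and 45.3% in the Kasumi-1 control and knockdown, and 35.8% and 28.6% in MV4-11. Promoter bases were lower after knockdown at 3 of 11 in Kasumi-1 and higher at 0, beside 14.6% and 4.86% of all genes. They were lower at 4 of 8 in MV4-11, near the 45.0% of all genes. CREBBP, a histone acetyltransferase that coactivates p53 and writes H3K27ac, had fewer promoter bases after knockdown in both lines. It had 2115 and 579 bases in Kasumi-1 and 1359 and 636 in MV4-11. Over its gene region CREBBP was within 1.5-fold in Kasumi-1 and lower in MV4-11. USP7, which deubiquitinates MDM2 and p53, had 2269 and 999 bases in Kasumi-1. In MV4-11 the kinase gene HIPK2 had 1598 and 382 bases and the acetyltransferase gene KAT5 1312 and 502. Over the gene regions in MV4-11, HIPK2 was within 1.5-fold and KAT5 was lower. MDM4, the partner of MDM2, had 2748 and 2466 bases in Kasumi-1 and 2169 and 1691 in MV4-11, within 1.5-fold in both.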

How the data were processed

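H3K27ac CUT&Tag peak lists of 4 samples were analysed, with 2 IgG samples not analysed here. The authors aligned reads to hg38 with Bowtie2, removed PCR duplicates with Picard, merged replicates with samtools and called peaks with MACS at a q-value of 0.01. The submitters' processing notes name Bowtie2 2.4.4 and MACS3 3.0, whereas the paper's methods name MACS2. Whether IgG served as control is not given in the sources used here. The deposited lists give chromosome, start, end and width of each peak in bases, without height, fold, q-value or read count, so width was the only measure and depth and precision are unknown.

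The members, gene lists and settings were chosen with earlier results of these data known. Starts were those of Ensembl canonical transcripts in GENCODE v44. The p53 motif was searched in the hg38 sequence. Bases under peaks were summed in each window for 20007 genes with 1 base of overlap enough, and a 1.5-fold difference set a call. With 1 list per group no test was run. Named genes were all members, ANP32B and, from the lists of other p53 targets and regulators, up to 4 per line and direction with the largest 1.5-fold difference and a promoter peak of at least 1000 bases in either library (MDM4 was added after its values were seen, and 1 gene and 1 sequence are not reported here). The interval arithmetic was tested on simulated data. Python 3.11.15 and numpy 2.4.6 were used. Alternatives covered windows, flanks, folds, peak width, joining of peaks and motif mismatches.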

Additional observations from a re-analysis of the deposited data

Results flagged for a closer look

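Promoter bases differed in opposite directions in the 2 lines at 4 members, and the share of all genes that did so was not counted. The median log2 ratio over all genes was -0.27 in MV4-11 and 0.0041 in Kasumi-1. The Kasumi-1 differences were small at FAS (12 bases), BTG2 (-63) and MDM2 (79), and larger at TNFRSF10B (551). The log2 ratio of sh-ANP32B to NC in MV4-11 minus that in Kasumi-1 was -0.98 at MDM2, -0.51 at FAS, -0.64 at TNFRSF10B and 0.36 at BTG2. BTG2 was the one with the higher ratio in MV4-11. In the gene regions the same difference was -2.75 at CDKN1A, -0.98 at MDM2, -0.51 at FAS and 0.36 at BTG2, the last 3 from the same peaks as in the promoter windows. With 1 library per group, any pair of unequal values has a direction, and the differences between the lines were not tested.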

How the results depend on the processing

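Of 130 alternative values, 106 stayed within 1.5 times the reported count or kept the sign. No paired analysis was possible because each group has 1 peak list, which also means that no replicate could be left out. Counts of members lower in promoter bases in Kasumi-1 went from 1 to 2 with the wider of 2 narrower promoter windows, stayed at 1 with the narrowest, of 1000 bases to each side, and went to 0 with only peaks of at least 1000 bases. Those higher in Kasumi-1 went from 1 to 2 with peaks at most 1000 bases apart joined, and to 0 with a fold of 2 or with only peaks of at least 1000 bases. In MV4-11 the count lower in promoter bases went from 3 to 5 with a lower fold. Between the NC lists the count lower in MV4-11 went from 6 to 3 with only peaks of at least 1000 bases. By gene region bases in Kasumi-1, the count lower went from 1 to 3 with the gene body alone and to 0 with peaks of at least 1000 bases, and the count higher from 1 to 0 with either of these or a fold of 2, and to 2 with a lower fold. In MV4-11 the region count lower went from 3 to 1 with the gene body alone and with 50 kb to each side, and the count higher from 0 to 3 with 50 kb to each side and to 1 with peaks of at least 1000 bases or a lower fold. Between the NC lists the region count lower went from 8 to 5 with peaks of at least 1000 bases and with a fold of 2. With peaks of at least 1000 bases, 1 member had a promoter peak in MV4-11 sh-ANP32B in place of 5. The median over the members in Kasumi-1, -0.013 on the log2 scale, became 0.520 points by width percentile, a turn of sign close to 0. With at most 1 mismatch, 2 members had a p53 match in the promoter window and 3 in the gene region, in place of 7 and 7. The causes were not tested. Narrow peaks, as at SESN1, ZMAT3 and GADD45A, and at CDKN1A in the MV4-11 knockdown, lie near the smallest width called in each list, 275 to 357 bases.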
